A study of Mus musculus with 33 samples.

Results

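The data described here are how genes varied together from library to library within each of 2 groups of transgenic animals. How the groups differed is not described. The members were the 12 CA1 libraries titled APP_jq1 and APP_veh, 6 in each group, of 33 samples in the series. Every gene was expressed as log2 CPM, its count scaled to a fixed library total, minus the mean of its own group, so that any effect of treatment on the mean was removed. By their labels, all 12 libraries came from APP/PS1-21 animals in a C57B/6 background, aged 8 to 10 months, a line that carries a human mutant APP transgene driven by the neuronal Thy1 promoter. APP_jq1 mice received JQ1, which blocks the bromodomains of BET proteins, at 50 mg per kg intraperitoneally for 10 days. APP_veh mice received 10% DMSO by the same route for 10 days. The CA1 field of the hippocampus was microdissected after behavioural testing, and its RNA was sequenced and counted per gene. Counts of 4 aged WT_veh libraries, from mice of the same age given the same vehicle for 10 days, served as a reference for levels. Their strain label names the APP/PS1-21 line too, so that only their titles call them WT. FPKM of 16 libraries of young C57B/6JRj mice aged 3 months served as a reference for variation without the transgene. Of these, 8 were from mice given JQ1 and 8 from mice given vehicle, for 13 days.

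App encodes the amyloid precursor protein, the source of amyloid-β. Amyloid plaques attract microglia, the phagocytes of the brain, which then change their gene expression. Trem2 is a lipid-sensing receptor of microglia and Tyrobp is the adaptor through which it signals. Signalling through this pair is known to be needed for the full disease-associated state, though not for every change in it. In that state, lysosomal and lipid genes such as Lyz2, Cst7, Ctsd and Gpnmb are raised and resting genes such as P2ry12 and Tmem119 are lowered. Astrocytes around plaques raise the filament proteins Gfap and Vim. In bulk tissue, more cells of a type and more RNA per cell cannot be told apart, so every value below is a tissue level.

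One library stood apart from the others of its group. In the library labelled APP_jq1 replicate 4, App was at 1782 CPM and Trem2 at 14.7 CPM, whereas the other 11 APP libraries held 2069 to 2712 CPM of App and 68.5 to 147.5 CPM of Trem2. The 4 aged WT_veh libraries held 1853 to 1990.0 CPM of App and 15.3 to 18.9 CPM of Trem2. Thy1, whose promoter drives the transgene, was at 820.3 CPM there, at 1618 to 2339 CPM in the other 11 and at 837.1 to 1069 CPM in WT_veh. This library therefore went against its label in each of these 3 genes, and results are given over all 12 libraries and over the 11 without it. Total counts ran from 14605459 to 25339482 per library, reads outside annotated exons made up 15.4% to 26.9%, and log2 CPM of libraries of a group correlated at 0.950 to 0.985. A sum over 16 genes of liver, Alb among them, was 3051.9 CPM in APP_jq1 replicate 3, 2236.9 CPM in the library labelled APP_jq1 replicate 4 and 963.4 CPM in APP_veh replicate 4, and between 1.24 and 118.1 CPM in the other 9. One of 4 WT_veh libraries also held 255.6 CPM of these genes. Of the tissue's own markers, all 16 CA1 pyramidal genes listed were measured, with Wfs1 at 185.7 to 338.4 CPM, and Prox1, which marks the dentate gyrus, was at 32.7 to 82.6 CPM. Neither the labels nor the methods give a batch.

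**Figure D1:**
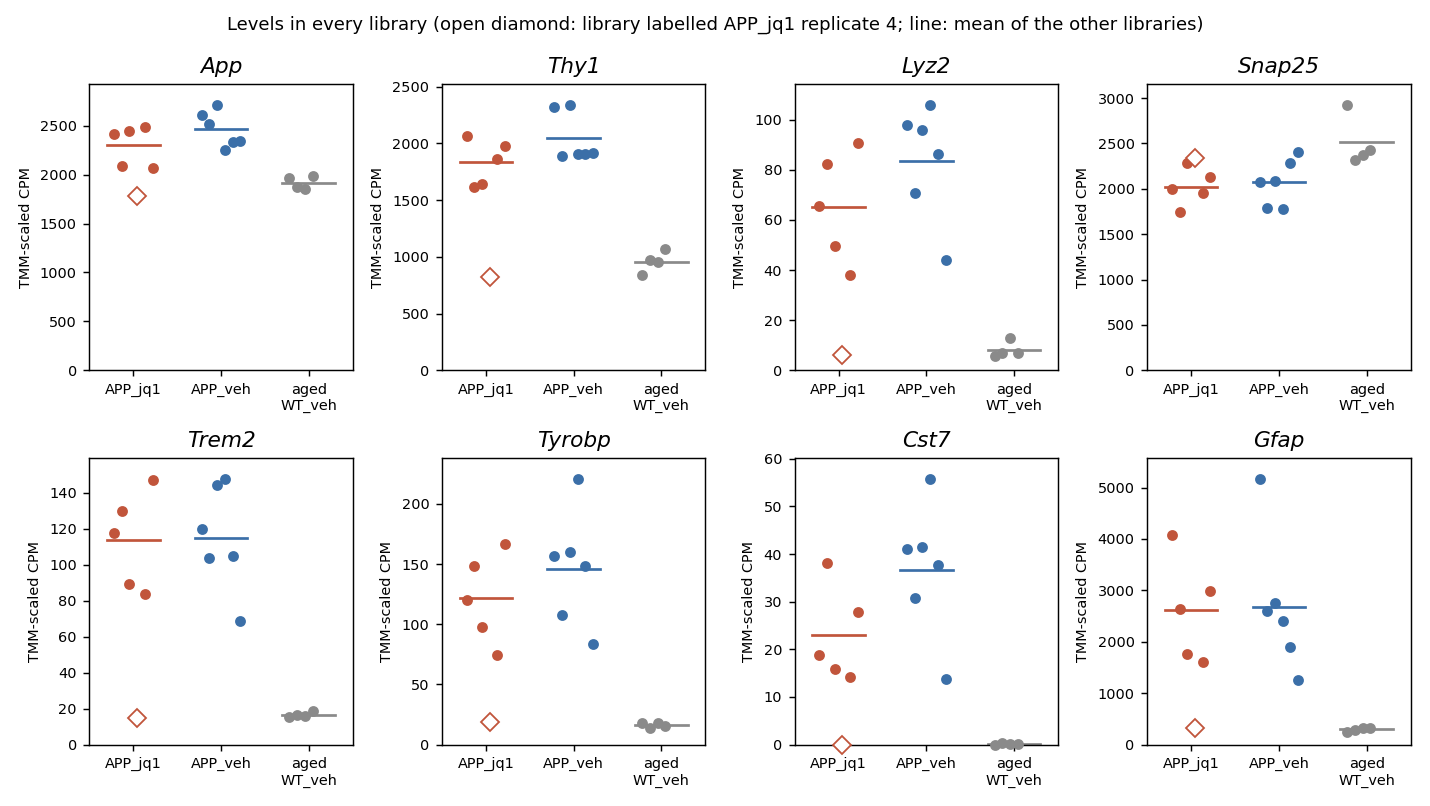
TMM-scaled CPM (linear axes from 0) of 8 genes in each APP_jq1, APP_veh and aged WT_veh library, one point per library; the line is the mean of the filled points. The open diamond, the library labelled APP_jq1 replicate 4, lies with the WT_veh points for Thy1 (820.3 CPM), Trem2 (14.7 CPM), Tyrobp, Cst7, Lyz2 and Gfap, and Snap25 shows no such gap.

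Trem2 (chr17:48346401-48354147, plus strand, GRCm38) and Tyrobp (chr7:30413760-30417585, plus strand) rose and fell together in both groups. In APP_jq1, Trem2 was at 117.7, 129.8, 89.6, 14.7, 83.7 and 146.9 CPM in replicates 1 to 6. In APP_veh, it was at 119.8, 103.8, 144.3, 147.5, 105.1 and 68.5 CPM. Apart from the library labelled APP_jq1 replicate 4, the groups overlapped over most of their range. Tyrobp was at 120.4, 148.2, 97.4, 18.6, 74.7 and 166.2 CPM in APP_jq1 and at 156.5, 107.7, 159.7, 220.3, 148.4 and 83.2 CPM in APP_veh. The lowest APP_veh library for both genes was replicate 6 and the highest was replicate 4. The centred values correlated at r = 0.979 and rho = 0.986, for which the exact two-sided permutation test within groups gave p = 1.93e-06 for both, the smallest it can give for 12 libraries (adjusted p = 2.7e-05 over 14 relations). In the 11 libraries without APP_jq1 replicate 4, r was 0.937 (exact permutation p = 5.79e-05, adjusted p = 0.00081) and rho was 0.964 (exact permutation p = 9.26e-05, adjusted p = 0.0013). Within groups, r was 0.977 in the 5 other APP_jq1 libraries and 0.915 in the 6 APP_veh libraries, and it was 0.913 when the 2 libraries farthest from the median, APP_jq1 replicate 4 and APP_veh replicate 6, were left out. The mean of the 2 genes was used below as the microglial measure, called the Trem2/Tyrobp mean.

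A fit across all genes asked which of them varied with the Trem2/Tyrobp mean inside the groups. With all 12 libraries, 291 of 16107 genes rose with it (1.81% of genes tested) and 4 fell (0.0248%) by the quasi-likelihood test of edgeR, adjusted after Benjamini and Hochberg at 0.05. Without APP_jq1 replicate 4, 13 of 16339 genes rose with it (0.0796%) and none fell, with 1381 genes at an unadjusted p under 0.05 in either direction. DESeq2 called 138 genes and limma 15 in the same 11 libraries. After a correction for GC content and transcript length, 0 genes were called in these 11 libraries by edgeR, with 506 at an unadjusted p under 0.05. Of the 13, 12 were among the 295 called with 12 libraries. The count therefore rested mostly on a single library, and the 13 genes are the ones that the remaining variation carried.

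The 13 genes included proteins of the lysosome and of the surface of myeloid cells. Lyz2 (lysozyme), Ctss and Ctsz (cathepsins) and Cst7 (cystatin F, an inhibitor of cathepsins) act in or on the lysosome. Fcer1g is the adaptor chain of Fc receptors, Cd300c2 and Lair1 are receptors of leukocytes, Cd52 is a surface glycoprotein of leukocytes, and Ccl6 is a chemokine. Rnase4 is a secreted ribonuclease, Vamp8 takes part in the fusion of endosomes, and Arl11 is a small GTPase. Of the 13, Vamp8 alone was outside the rule for named genes and was named after its values were seen. Their correlations with the Trem2/Tyrobp mean over 11 libraries ran from 0.869 for Ccl6 to 0.976 for Arl11 and Lyz2.

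Lyz2 (chr10:117277331-117282321, minus strand) had the lowest adjusted p of the 13. It was at 65.7, 82.2, 49.5, 6.27, 38.2 and 90.9 CPM in APP_jq1 replicates 1 to 6 and at 97.9, 70.9, 95.96, 105.9, 86.3 and 43.9 CPM in APP_veh. Its slope was 1.14 log2 units of Lyz2 per log2 unit of the measure in 11 libraries (adjusted p = 0.000805, edgeR), and r was 0.998 in APP_jq1 and 0.965 in APP_veh. Cst7 (chr2:150570415-150578944, plus strand), a gene that resting microglia hardly express, was not counted in the library labelled APP_jq1 replicate 4, where 3 counts would be 0.199 CPM, and was at 18.7, 38.2, 15.9, 14.2 and 27.8 CPM in APP_jq1 replicates 1, 2, 3, 5 and 6. In APP_veh, Cst7 was at 41.0, 30.8, 41.5, 55.7, 37.7 and 13.7 CPM, and replicate 6 was again the lowest. Its slope was 1.44 (adjusted p = 0.0113, edgeR, 11 libraries). Against the Trem2/Tyrobp mean, Cst7 gave r = 0.972 and rho = 0.909 over 12 libraries (exact permutation p = 2.7e-05 and 7.72e-06, adjusted 0.000189 and 5.4e-05). Over 11 libraries, Cst7 gave r = 0.929 and rho = 0.918 (exact permutation p = 0.000197 and 0.000301, adjusted 0.00138 and 0.00211), and r was 0.888 without the 2 farthest libraries.

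As these genes moved together, their promoters are shown where they hold a shared letter pattern. PU.1, the factor that sets up the myeloid lineage and is encoded by Spi1, recognises a core that contains GAGGAA. The 250 bases before the start were taken from RefSeq (GRCm38.p6) and searched on both strands. Of the 13 genes, 11 had a window and 3 of these, Ctss, Cd300c2 and Lair1, held the pattern, as did Trem2. In the whole table, 25.9% of 27025 genes held it, so the share among these genes is a description and not an excess. Capitals mark GAGGAA or its reverse complement TTCCTC, and each sequence is read 5′ to 3′ on the strand of the gene.
Trem2 (chr17:48346151-48346400, plus strand): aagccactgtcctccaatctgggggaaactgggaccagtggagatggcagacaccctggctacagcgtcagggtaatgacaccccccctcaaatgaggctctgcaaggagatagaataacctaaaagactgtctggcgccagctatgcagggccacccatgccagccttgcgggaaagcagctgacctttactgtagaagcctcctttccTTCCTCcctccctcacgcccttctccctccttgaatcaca
Ctss (chr3:95526536-95526785, plus strand): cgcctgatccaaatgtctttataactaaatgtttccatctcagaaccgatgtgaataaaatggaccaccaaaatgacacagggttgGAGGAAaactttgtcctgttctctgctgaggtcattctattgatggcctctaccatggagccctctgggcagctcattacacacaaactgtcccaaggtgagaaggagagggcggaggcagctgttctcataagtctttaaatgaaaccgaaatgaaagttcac
Cd300c2 (chr11:115001881-115002130, minus strand): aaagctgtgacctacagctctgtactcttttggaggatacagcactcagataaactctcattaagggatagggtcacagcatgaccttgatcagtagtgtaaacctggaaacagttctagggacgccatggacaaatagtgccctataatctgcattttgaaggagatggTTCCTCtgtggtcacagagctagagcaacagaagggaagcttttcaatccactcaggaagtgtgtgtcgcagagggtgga
Lair1 (chr7:4063205-4063454, minus strand): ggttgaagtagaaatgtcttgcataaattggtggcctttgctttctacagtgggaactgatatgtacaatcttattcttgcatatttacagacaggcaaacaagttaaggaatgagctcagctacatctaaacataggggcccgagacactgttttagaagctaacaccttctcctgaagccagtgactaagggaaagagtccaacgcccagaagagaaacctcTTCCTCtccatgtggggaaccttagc

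Disease-associated microglial genes had the highest median correlation with the Trem2/Tyrobp mean of the 23 lists, over 12 as over 11 libraries. Of 30 members tested, 29 correlated positively over 12 libraries with a median r of 0.90, and 23 rose in the fit. Without APP_jq1 replicate 4, 30 correlated positively with a median r of 0.78, and 6 rose. Over all genes tested, the median r was -0.01 in both sets. Beside the members already named, the lysosomal protease Ctsd gave r = 0.871 over 11 libraries, Cd68, a lysosomal membrane protein, 0.826, Gpnmb, a glycoprotein of lipid-laden phagocytes, 0.805, and Itgax, an integrin, 0.831. Among these 4, the adjusted p over 11 libraries ran from 0.110 for Ctsd to 0.251 for Gpnmb (edgeR). The growth factor Igf1 gave r = 0.465 and Hif1a, a transcription factor of low oxygen that many cells express, 0.058.

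Genes of resting microglia moved in the same direction as the disease-associated ones inside the groups. Of 21 members, 19 correlated positively in both sets, with a median r of 0.83 over 12 libraries and 0.74 over 11, and 13 and 2 rose in the fits (Rnase4 among the latter). Spi1 gave r = 0.832, Aif1, the calcium-binding protein Iba1, 0.825, the lectin Siglech 0.817, and the nucleotide receptor P2ry13 0.838 over 11 libraries. The nucleotide receptor P2ry12 was at 67.7, 66.6, 64.3, 49.3, 53.8 and 80.1 CPM in APP_jq1 and at 42.3, 51.8, 52.4, 77.2, 56.6 and 56.3 CPM in APP_veh. The lowest P2ry12 value was in APP_veh replicate 1, so this gene, unlike Trem2, did not place the library labelled APP_jq1 replicate 4 outside the others. Its r with the Trem2/Tyrobp mean was 0.610 and rho 0.748 over 12 libraries (exact permutation p = 0.0230 and 0.00801, adjusted 0.0536 and 0.0374). Over 11 libraries, P2ry12 gave r = 0.505 and rho = 0.382 (exact permutation p = 0.138 and 0.283, adjusted 0.368 and 0.434), and r was 0.683 without the 2 farthest libraries. The fractalkine receptor Cx3cr1 gave r = 0.608, the membrane protein Tmem119 gave 0.561, and the sugar transporter Slc2a5 and the phagocytic receptor Mertk gave -0.20 and -0.39 over 11 libraries.

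Members of the complement list differed in how they followed the measure. The C1q chains C1qa, C1qb and C1qc, which microglia make, gave r = 0.840, 0.823 and 0.861 over 11 libraries, and C1qa and C1qb correlated with each other at 0.978. C3 gave 0.288, and its level followed Alb (r = 0.811 over 11 libraries): it was at 167.3 CPM in APP_jq1 replicate 3, 120.4 CPM in the library labelled APP_jq1 replicate 4 and 54.9 CPM in APP_veh replicate 4, against 1.69 to 8.11 CPM in the other 9. Those 3 libraries were the ones with the liver genes, and the part of these in the C3 values was not tested. Over the complement list, 10 of 13 members correlated positively in both sets, the median r was 0.66 over 12 libraries and 0.60 over 11, and 6 and 0 rose. The interferon list had 24 of 24 and 23 of 24 positive members, a median r of 0.65 and 0.63, and 4 and 0 members that rose. Trim30a, at r = 0.849, and Bst2, which tethers virus particles, at 0.825, were its highest members over 11 libraries.

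The genes that present antigen on MHC class II varied widely, in another order of libraries. Cd74, the invariant chain, was at 31.0, 52.4, 32.8, 3.33, 131.8 and 146.0 CPM in APP_jq1 and at 127.1, 47.5, 433.6, 37.3, 366.1 and 35.2 CPM in APP_veh. APP_veh replicates 3 and 5 stood highest, and APP_veh replicate 4, the highest library for Tyrobp, was the second lowest of its group. Over 11 libraries, Cd74 correlated with H2-Aa at 0.945 and with H2-Ab1 at 0.975, both chains of class II molecules. With the Trem2/Tyrobp mean, Cd74 gave r = 0.683 over 12 libraries and 0.250 over 11. Across the antigen presentation list, the median r was 0.64 and 0.44, 17 of 18 members were positive in both sets, and 2 and 0 rose, while the mean r between pairs of its members was 0.618 over 11 libraries against 0.00087 between all genes.

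Reactive astrocyte genes varied together, led by Gfap (chr11:102887336-102900912, minus strand). Gfap was at 4074, 2634, 1766, 322.3, 1606 and 2986 CPM in APP_jq1 and at 5160, 2589, 2763, 2408, 1898 and 1260.3 CPM in APP_veh. The 4 WT_veh libraries held 247.8 to 320.6 CPM. The highest library of each group, APP_veh replicate 1 and APP_jq1 replicate 1, was not the highest of its group for Trem2. Against the Trem2/Tyrobp mean, Gfap gave r = 0.898 and rho = 0.692 over 12 libraries (exact permutation p = 0.00376 and 0.0198, adjusted 0.0132 and 0.0555). Over 11 libraries, Gfap gave r = 0.642 and rho = 0.618 (exact permutation p = 0.0492 and 0.0614, adjusted 0.172 and 0.286), and r was 0.450 without the 2 farthest libraries, so the relation did not hold after adjustment once APP_jq1 replicate 4 was left out. Gfap, Vim and Serpina3n, a secreted inhibitor of proteases, moved together: over 11 libraries Gfap correlated with Vim at 0.981 and with Serpina3n at 0.909. In APP_veh replicate 1, Vim was at 451.5 CPM and Serpina3n at 1017 CPM, against highest values of 270.7 and 709.1 CPM in the other 11 libraries, both in APP_jq1 replicate 1. The list had 18 of 21 positive members over 12 libraries and 17 over 11, a median r of 0.53 and 0.52, and 3 and 0 members that rose.

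Genes that mark astrocytes as such correlated with each other at a mean of 0.189 over 11 libraries, and reactive genes at 0.420. S100b, a calcium-binding protein, gave r = 0.911 over 11 libraries (adjusted p = 0.072, edgeR), from 166.5 CPM in APP_jq1 replicate 5 to 289.1 CPM in APP_jq1 replicate 6. Mlc1, a membrane protein of astrocyte endfeet, gave 0.800 and the water channel Aqp4 0.710. The glutamate transporter Slc1a2 gave -0.315 and glutamine synthetase, Glul, 0.008. The list had 17 and 16 of 20 positive members, a median r of 0.48 and 0.35, and 3 and 0 members that rose.

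**Figure D2:**
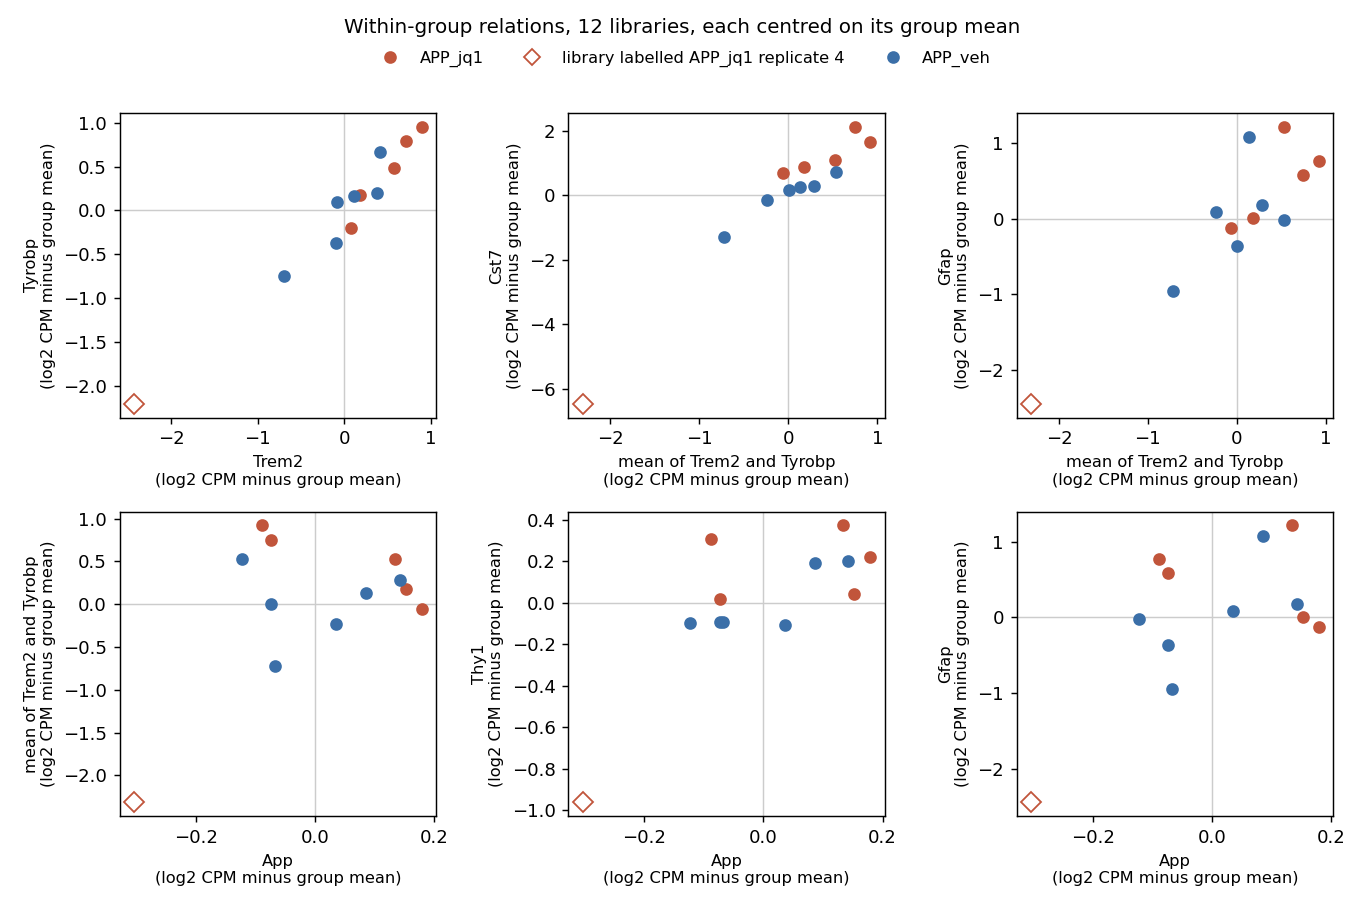
Centred log2 CPM of 12 libraries (points, red APP_jq1 and blue APP_veh, open diamond APP_jq1 replicate 4) for 6 pairs of measures, each axis being the library's value minus its group mean. Trem2 against Tyrobp and the Trem2/Tyrobp mean against Cst7 rise along the filled points as well (r = 0.937 and 0.929), while App against the Trem2/Tyrobp mean does so through the open diamond and falls among the filled points (r = -0.375).

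No gene of the myelin list and few of the neuronal lists varied with the Trem2/Tyrobp mean past the threshold. Of the 21 myelin genes, 17 correlated positively over 12 libraries and 20 over 11, with median r of 0.15 and 0.32. Their median r was 0.86 in the 5 APP_jq1 libraries other than replicate 4. In the 6 APP_veh libraries it was -0.29, a difference that was not tested. None of the 21 myelin genes rose or fell in either fit (edgeR). Of 30 genes of neurons in general, 6 correlated positively over 12 libraries and 4 over 11, with median r of -0.21 and -0.32, and Thy1 alone rose over 12 libraries. Synaptotagmin 1 (Syt1) gave r = -0.74 over 11 libraries and synaptophysin (Syp) -0.67. The 16 CA1 pyramidal genes were all negative over 12 libraries (median r = -0.40) and 14 were negative over 11 (-0.35). Snap25, a protein of the presynaptic release machinery, ran from 1747 to 2343 CPM in APP_jq1 and from 1777 to 2402 CPM in APP_veh. Its r with the Trem2/Tyrobp mean was -0.516 (rho = -0.490, exact permutation p = 0.0776 and 0.113, adjusted 0.136 and 0.197) over 12 libraries, and -0.437 (rho = -0.455, exact permutation p = 0.209 and 0.192, adjusted 0.368 and 0.384) over 11, and it was -0.182 without the 2 farthest libraries.

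By the rule for named genes, those that ran most steadily against the Trem2/Tyrobp mean were Btrc, Atrnl1, Acad9, Clstn1, Cacng2, Rbsn, Dnajc5, Cadps, Rab6b and Ogfod1, with r between -0.79 and -0.91 over 11 libraries, of which Atrnl1 alone passed the threshold over 12. Cacng2 (stargazin) carries AMPA receptors to the synapse, Dnajc5 and Cadps act in the release of synaptic vesicles, Clstn1 is a postsynaptic cadherin-like protein, and Rab6b is a neuronal Rab GTPase. Clstn1 ran from 810.0 CPM in APP_jq1 replicate 6 to 1183 CPM in APP_veh replicate 6, the libraries with the highest APP_jq1 value and the lowest APP_veh value of Trem2. The 4 genes that fell in the fit of 12 libraries were Lrrc4c, Atrnl1, Efnb2 and Kcnc2, of which all but Atrnl1 were chosen after their values were seen. Their slopes lay between -0.19 and -0.29, and over 11 libraries their adjusted p ran from 0.416 to 0.656 (edgeR). Among lists not yet described, the median r with the Trem2/Tyrobp mean over 12 and 11 libraries was 0.48 and 0.33 for oligodendrocyte precursors, 0.33 and 0.15 for vessels, 0.34 and 0.27 for meninges, -0.09 and 0.18 for choroid plexus, 0.08 and 0.09 for blood, -0.02 and -0.19 for dentate gyrus and CA3, -0.35 and -0.27 for interneurons, -0.32 and 0.00 for immediate early genes, -0.24 and 0.01 for heat shock genes, -0.17 and 0.36 for oxidative phosphorylation (7 and 24 of 30 positive), 0.19 and 0.55 for ribosomal proteins, and 0.21 and -0.07 for nuclear noncoding RNAs. No member of these 12 lists passed the threshold in either set (edgeR). In a list of App, its homologues and processing genes, 4 of 22 rose over 12 libraries (Thy1, Apoe and Clu among them) and 0 over 11, with medians of 0.04 and -0.04.

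**Figure D3:**
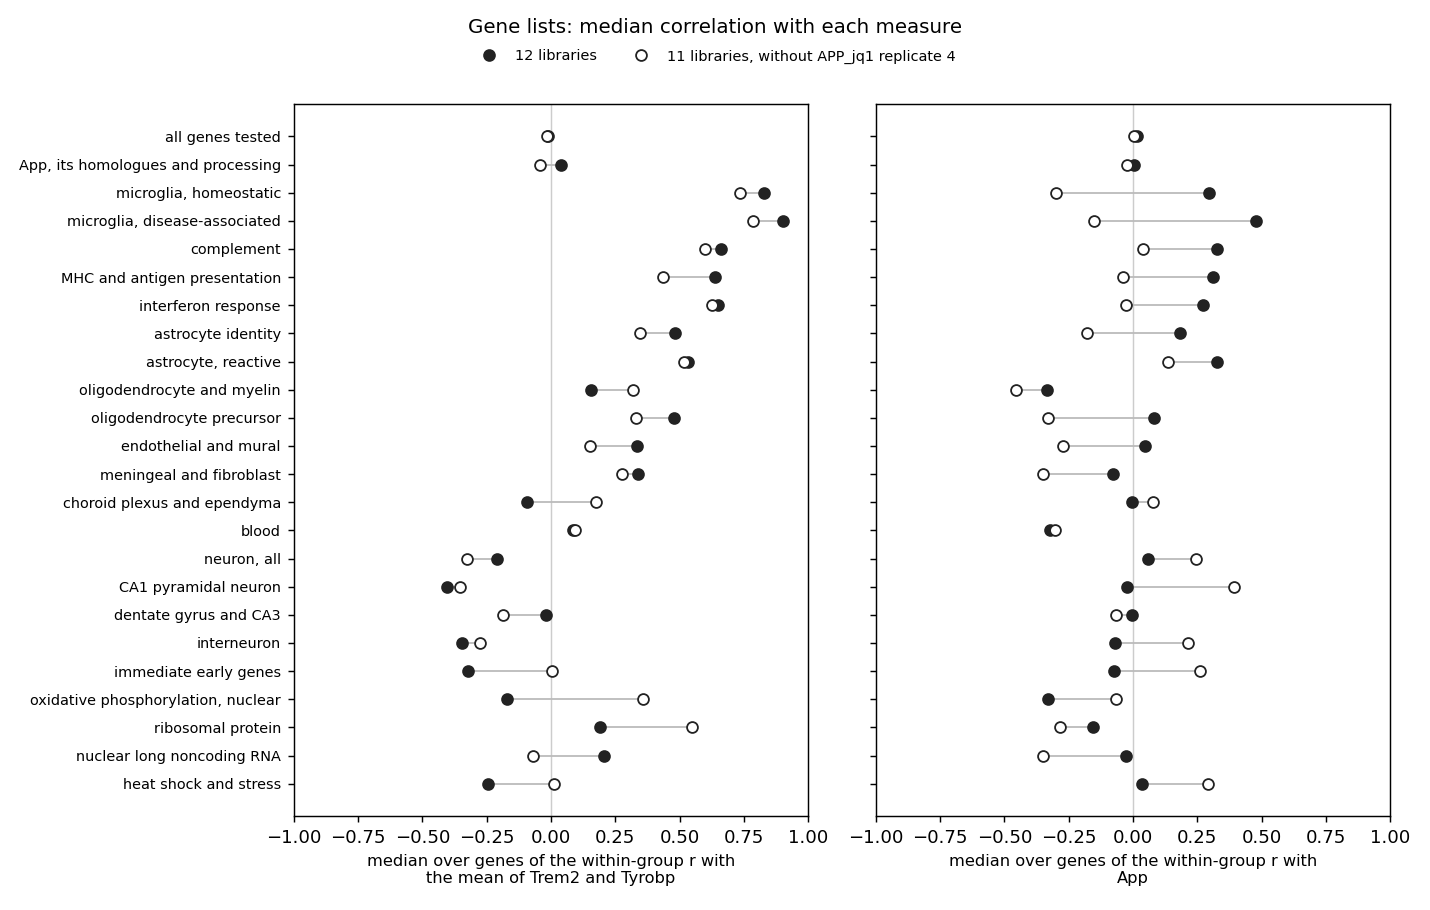
Median within-group r of each gene list with the Trem2/Tyrobp mean (left) and with App (right), as filled points for 12 libraries and open points for 11 without APP_jq1 replicate 4. The microglial lists stay between 0.74 and 0.90 on the left with and without that library, and cross from positive to negative on the right (0.48 and -0.15 for the disease-associated list).

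App (chr16:84949685-85173766, minus strand) had a narrower range from library to library than Trem2, and its relation with the microglial measure changed sign without APP_jq1 replicate 4. App was at 2414, 2091, 2444, 1782, 2490.5 and 2069 CPM in APP_jq1 and at 2607, 2519, 2712, 2256, 2335 and 2345 CPM in APP_veh. Its within-group SD was 0.153 on the log2 scale over 12 libraries and 0.117 over 11, against 0.915 and 0.380 for Trem2. Against the Trem2/Tyrobp mean, App gave r = 0.497 but rho = -0.056 over 12 libraries (exact permutation p = 0.197 and 0.882, adjusted 0.276 and 0.950). Over 11 libraries, both were negative at r = -0.375 and rho = -0.382 (exact permutation p = 0.272 and 0.264, adjusted 0.381 and 0.434), and r was -0.236 without the 2 farthest libraries. Within groups, r was -0.902 over the 5 APP_jq1 libraries other than replicate 4 and 0.116 over the 6 APP_veh libraries, and whether these differ was not tested. The sign of this relation thus depended on 1 library, which held the lowest value of both measures.

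App moved with Thy1 (chr9:44043384-44048579, plus strand) over 12 libraries by r and not by rho. App gave r = 0.766 and rho = 0.573 over 12 libraries (exact permutation p = 0.0149 and 0.0587, adjusted 0.0418 and 0.137), and 0.462 and 0.473 over 11 (exact permutation p = 0.173 and 0.172, adjusted 0.368 and 0.384), with 0.473 without the 2 farthest. The relation did not pass the threshold without APP_jq1 replicate 4. Reads were aligned to the mouse genome, so that reads of the human transgene were counted on App only where they matched closely enough, and how many did was not tested. Enzymes that process the protein had r of both signs: over 11 libraries, r with App was -0.09 for Bace1, the β-secretase, -0.17 for the α-secretase Adam10, 0.19 for Ncstn and -0.61 for Psenen, both subunits of γ-secretase, and 0.57 for the homologue Aplp1.

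No gene passed the threshold for variation with App. In edgeR's quasi-likelihood test, 0 of 16108 genes (0%) were called over 12 libraries, with 546 at an unadjusted p under 0.05, and 0 of 16340 (0%) over 11, with 883. DESeq2 called 0 and 21 genes, and limma 0 and 0. After a correction of each library for GC content and transcript length, 103 genes were called over 12 libraries, 99 of them rising with App, and 9 over 11 libraries, 4 of them rising, with Cbl, a ubiquitin ligase named after its values were seen, as the 1 gene in both sets.

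The genes whose correlation with App was steadiest over both sets and both groups are named here by rule. On the positive side, these were Efnb1, Kcnn2, Srebf2, Dcakd, Sirt6, Cdk8, Atp6v0c-ps2, Lamb3, Map7d1 and Zdhhc14, with r from 0.78 to 0.92 over 11 libraries. Srebf2, the regulator of cholesterol synthesis, was at 244.1, 210.1, 221.0, 182.9, 235.4 and 190.5 CPM in APP_jq1 and at 254.2, 261.8, 257.8, 217.6, 238.3 and 253.1 CPM in APP_veh, and gave r = 0.816 over 11 libraries. Kcnn2, a calcium-activated potassium channel, gave 0.870. Atp6v0c-ps2 is annotated as a pseudogene copy, so that its reads may be shared with Atp6v0c. On the negative side were Mal, Pgap1, Tacr3, Dpp4, Lingo2, Cd320, 4930506C21Rik, Dnajb6, Six4 and Mbtps2, with r from -0.75 to -0.92. Mal, a protein of compact myelin, was at 180.1, 191.5, 146.9, 214.1, 155.6 and 212.9 CPM in APP_jq1 and at 149.2, 156.4, 147.8, 162.7, 195.9 and 172.9 CPM in APP_veh (r = -0.808 over 11 libraries). None of these 20 genes passed the threshold, with adjusted p between 0.697 and 0.940 over 11 libraries (edgeR).

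Among the lists, myelin genes had the lowest median r with App in both sets. Of 21, 4 correlated positively over 12 libraries and 0 over 11, with median r of -0.33 and -0.45, beside 0.02 and 0.01 over all genes tested. Other lists were also negative. Oxidative phosphorylation genes gave -0.33 and -0.07 (4 and 10 of 30 positive), and blood genes gave -0.32 and -0.30. Meningeal genes gave -0.08 and -0.35, and nuclear noncoding RNAs gave -0.03 and -0.35. Aspa, an enzyme that oligodendrocytes use to supply acetate, gave r = -0.95 and Opalin, a myelin membrane protein, -0.78 over 11 libraries. The disease-associated list gave 31 of 32 positive members and a median r of 0.48 over 12 libraries, and 4 positive members and a median of -0.15 over 11. The resting list gave 0.30 and -0.30. Gfap itself gave r = 0.628 with App and rho = 0.294 over 12 libraries (exact permutation p = 0.0653 and 0.400, adjusted 0.131 and 0.623), and 0.154 and -0.009 over 11 (exact permutation p = 0.657 and 0.990, adjusted 0.667 and 0.990), with 0.336 without the 2 farthest. For CA1 pyramidal genes the median r with App was -0.02 over 12 libraries and 0.39 over 11, and Snap25 gave -0.167 and 0.148 (rho = -0.140 and 0.191, exact permutation p of r = 0.614 and 0.667, of rho 0.681 and 0.585, adjusted 0.668 and 0.667, and 0.937 and 0.688), with 0.191 without the 2 farthest.

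Averaging each list within a library showed which lists moved together. The lists of disease-associated and resting microglia correlated at 0.94 over 12 libraries and 0.87 over 11. Disease-associated genes also moved with the astrocyte identity list (0.83 and 0.84), the interferon list (0.85 and 0.81), complement (0.89 and 0.79) and reactive astrocytes (0.80 and 0.75). In the other direction, they gave -0.46 and -0.81 with genes of all neurons and -0.75 and -0.60 with interneuron genes. The members of these neuronal lists hardly moved together, so their means do not show a shared neuronal change. The mean r between pairs of members was 0.0945 and 0.1004 for all neurons and 0.0988 and 0.0709 for interneurons. It was 0.737 and 0.645 for disease-associated genes. The list of all neurons also gave -0.84 and -0.82 with ribosomal protein genes, and 0.41 and 0.47 with the share of reads outside exons. Myelin and CA1 pyramidal genes gave -0.76 and -0.83. CPM of a library sum to a fixed total, and the part of this in the opposite signs was not tested. These are descriptions over 12 or 11 libraries, without a test.

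**Figure D4:**
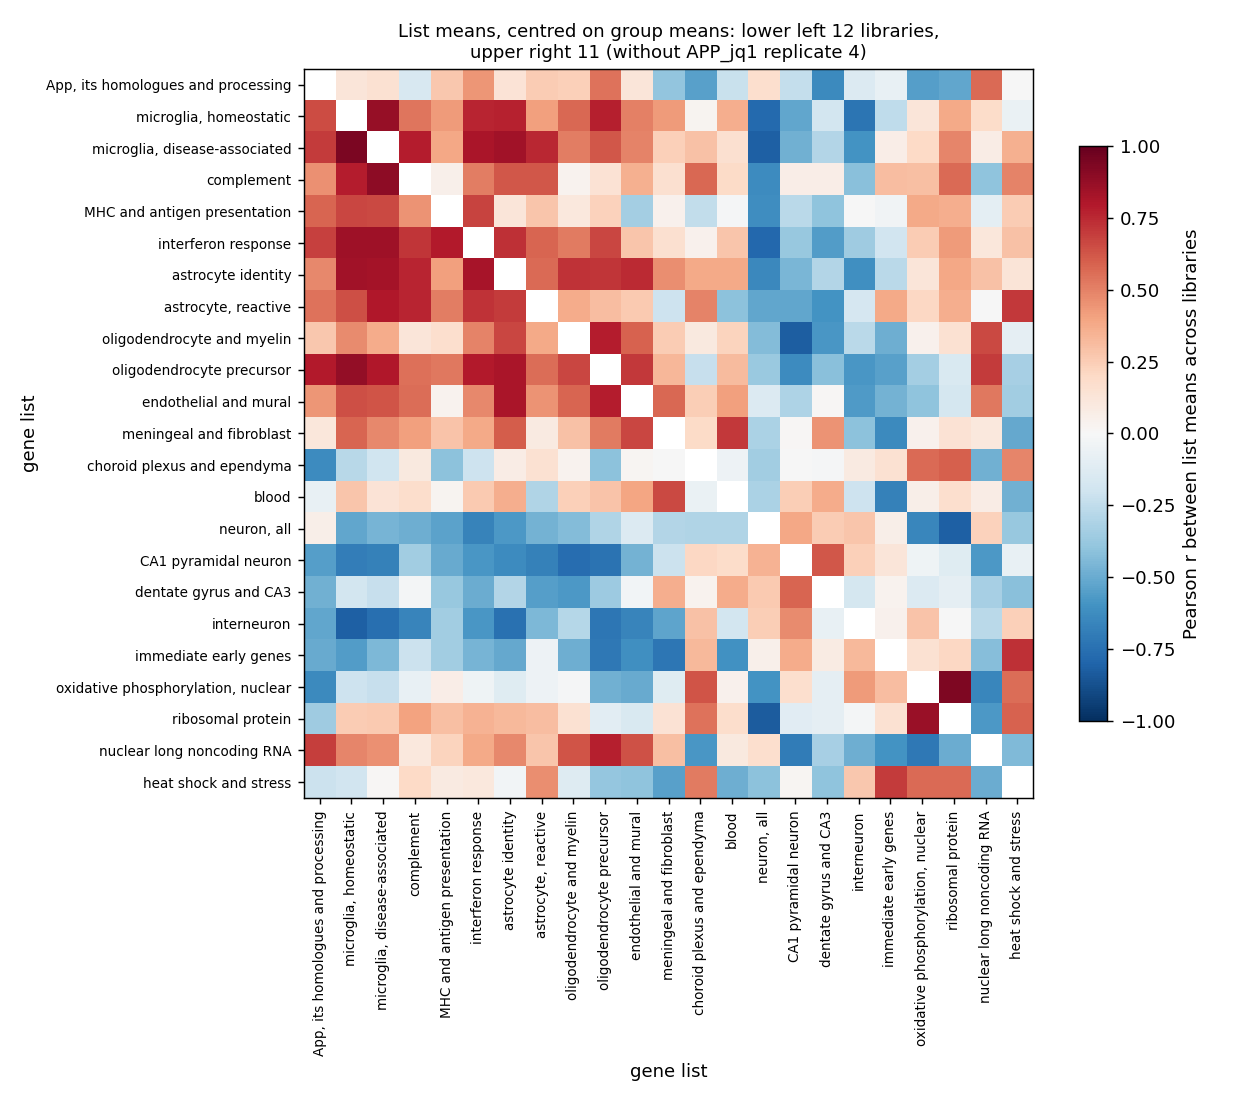
Pearson r between the means of 23 gene lists across libraries, each list mean being centred on its group; the lower left triangle uses 12 libraries and the upper right triangle 11, without APP_jq1 replicate 4. Microglial, astrocyte and interferon lists form a red block in both triangles, blue against neuronal lists, and oxidative phosphorylation and ribosomal genes form a second red pair (0.86 and 0.93).

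Another set of genes varied with the share of reads outside exons. That share was 21.0%, 26.9%, 16.9%, 17.1%, 24.5% and 21.9% in APP_jq1 replicates 1 to 6 and 17.5%, 24.5%, 15.4%, 19.4%, 17.9% and 22.3% in APP_veh. In the fit, 257 of 16109 genes (1.6%) varied with it over 12 libraries, 147 rising and 110 falling, and 84 of 16341 (0.514%) over 11, of which 74 were among the 257. This count ran from 14, without APP_veh replicate 2, to 415, without APP_jq1 replicate 6, when 1 library was left out. With library size alone as the scale, 280 genes were called, 119 rising and 161 falling, and after the correction for GC content and length 22 were called, so the count and its direction depended on the scaling. Nuclear RNAs were mostly high where the share was high: Malat1 gave r = 0.96 over 12 libraries and 0.95 over 11, Meg3 0.87 and 0.86, and Miat 0.75 and 0.71. Of the 7 measured nuclear RNAs, 6 correlated positively in both sets, with a median r of 0.61 and 0.57. The lowest r was -0.08 over 12 libraries and -0.03 over 11, and 2 and 1 rose in the fits. The mean of the 7 gave 0.890 and, over 11 libraries, 0.866. Genes of the mitochondrial respiratory chain encoded in the nucleus went the other way. All 30 correlated negatively over 12 libraries with a median r of -0.73, and 5 fell in the fit. Over 11 libraries, all but 1 correlated negatively with a median r of -0.70, and 1 fell. The 30 members correlated with each other at a mean of 0.687, and 0.681 over 11 libraries, and moved with 28 ribosomal protein genes at 0.86 and 0.93. Ndufs8, a subunit of complex I, gave r = -0.87 and -0.86 over 12 and 11 libraries, and Uqcrq, a subunit of complex III, -0.86 and -0.84. Counts per gene do not separate mature from unspliced transcripts.

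App and the microglial measure were set against the same share and against depth. App gave r = -0.003 and rho = -0.119 with the share over 12 libraries (exact permutation p = 0.992 and 0.736, adjusted 0.992 and 0.937), and -0.427 and -0.509 over 11 (exact permutation p = 0.220 and 0.134, adjusted 0.368 and 0.374), with -0.578 without the 2 farthest. The Trem2/Tyrobp mean gave 0.264 and 0.070 (exact permutation p = 0.517 and 0.843, adjusted 0.658 and 0.950), and -0.248 and -0.164 over 11 (exact permutation p = 0.480 and 0.652, adjusted 0.611 and 0.702), with -0.075 without the 2 farthest. With the total count, App gave r = 0.575 and rho = 0.601 over 12 libraries (exact permutation p = 0.108 and 0.0732, adjusted 0.167 and 0.146), 0.435 and 0.382 over 11 (exact permutation p = 0.237 and 0.310, adjusted 0.368 and 0.434), and 0.463 without the 2 farthest. The Trem2/Tyrobp mean gave 0.247 and 0.007 with it (exact permutation p = 0.620 and 0.992, adjusted 0.668 and 0.992), -0.222 and -0.191 over 11 (exact permutation p = 0.528 and 0.590, adjusted 0.616 and 0.688), and -0.192 without the 2 farthest. None of these 4 relations passed the threshold, which does not show that depth and the share have no part in the levels.

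**Figure D5:**
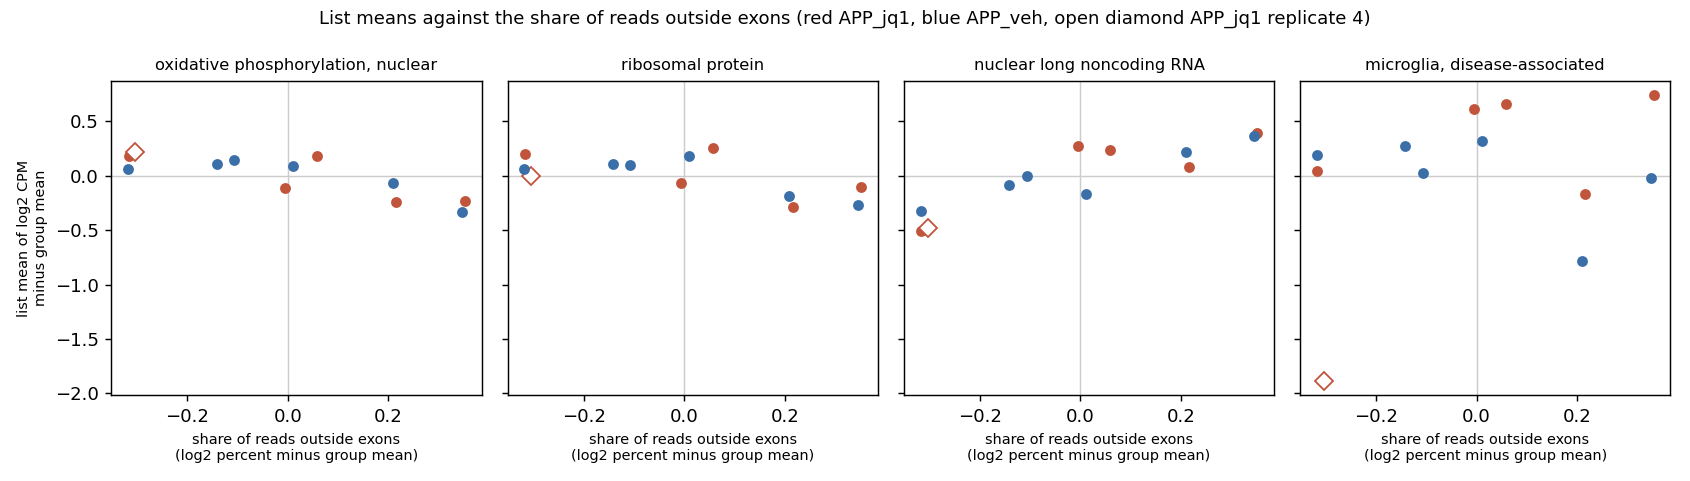
Mean centred log2 CPM of 4 gene lists against the centred log2 percentage of reads outside exons, one point per library (red APP_jq1, blue APP_veh, open diamond APP_jq1 replicate 4). Oxidative phosphorylation and ribosomal genes fall and nuclear noncoding RNAs rise with the share (r = -0.825, -0.645 and 0.890), and in the disease-associated list APP_jq1 replicate 4 lies far below the other points, at -1.89.

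The first principal component of the centred values held 28.9% of the variance over 12 libraries and 26.3% over 11, and in both sets its 5 leading genes were Alb, Ahsg, Gc, Cyp3a11 and Apob, all products of liver. The libraries highest on it were the library labelled APP_jq1 replicate 4, APP_veh replicate 4 and APP_jq1 replicate 3, the ones with the liver sums given above. This component also correlated with the total count, at -0.705 over 12 libraries and -0.650 over 11. With the Trem2/Tyrobp mean it gave -0.537 and 0.220, and with App -0.453 and -0.180. Cst7 was among the genes at its other end over 12 libraries. Over 12 libraries, the second component held 15.1% and correlated with the Trem2/Tyrobp mean at 0.729. Its leading gene was again Alb (loading 0.065), followed by Cst7 (0.063) and Cxcl13, a chemokine for B cells (0.063). APP_veh replicate 4, a library with liver genes, was highest on it, at 0.661. The third component held 13.8%, correlated with the share of reads outside exons at 0.758 and was led by noncoding RNAs such as Rpph1 and Rn7sk. Over 11 libraries the order changed: the second component held 16.8% and correlated with the share at 0.747 and with the Trem2/Tyrobp mean at -0.521. The third held 13.0% and correlated with that mean at 0.665, with App at -0.597 and with the share at 0.403. Its leading genes over 11 libraries were noncoding RNAs such as Rny1 and Rpph1. Without the 3 libraries with over 100 CPM of Alb, 8 genes rose with the Trem2/Tyrobp mean, and the relation of Trem2 with Tyrobp was 0.931 over the 9 libraries that remained. These 3 include APP_jq1 replicate 4, and 13 genes rose when it alone was left out.

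The same relations were computed in young mice without the transgene. Trem2 ran from 4.33 to 9.46 FPKM and Tyrobp from 19.8 to 39.2 FPKM over 16 libraries, and their r was 0.381 with a rho of 0.694 (log2 of FPKM + 0.1, centred on treatment groups). The within-group SD of Trem2 was 0.265 on that scale, against 0.915 in the 12 and 0.380 in the 11 aged APP libraries. Cst7 was at most 0.437 FPKM, and its r with the Trem2/Tyrobp mean was 0.309. Resting microglial genes had a median r of 0.45 with it, disease-associated genes of 0.29 (20 genes), and all genes of 0.04. App gave 0.059 with the Trem2/Tyrobp mean and 0.591 with Thy1, beside 0.497 and 0.766 in the 12 aged libraries and -0.375 and 0.462 in the 11. Ribosomal protein genes had medians of 0.57 in young mice, 0.19 over the 12 aged libraries and 0.55 over the 11. The 2 ages were normalized separately and in other units, and the differences between them were not tested.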

How the data were processed

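CA1 RNA in 12 libraries labelled APP was sequenced on a HiSeq2000. The authors used STAR to place reads on mm10 (up to 2 mismatches) and HTSeq to make the deposited counts per gene, as whole numbers without normalization, and the submitters' processing notes also list CASAVA 1.8.2, TopHat, Cufflinks and Cuffdiff. Whether counting used strand is not given in the sources used here. The deposited FPKM of young mice were made by the authors with Cufflinks/Cuffdiff, per transcript length and depth, and depth is unknown for them.

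The members, lists and tests were chosen with earlier results of these data known. Groups came from the labels. Coordinates, symbols and lengths came from GENCODE M21 on the mm10 build. Of 38355 genes, those kept by filterByExpr were scaled by TMM in edgeR 4.0.16 and given as log2 CPM (prior count 2), centred on each group. Each gene was fitted on App, on the Trem2/Tyrobp mean and on the log2 share of reads outside exons (no-feature reads over these plus counted and ambiguous reads), with group as a term, by the quasi-likelihood test with Benjamini-Hochberg adjustment at 0.05, the genes making up a measure being left out. Slopes are log2 units of a gene per log2 unit of the measure, which is itself measured with error. The 14 relations used exact two-sided permutation within groups, and p-values were adjusted over all 14, of which 13 are given, as some items are not reported here. Alternatives used DESeq2 1.42.0, limma 3.58.1 and splines of 5 degrees of freedom for GC content and length (known for 99% of genes). R was 4.3.3 and Python 3.11.15. Fits were tested on simulated counts.

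Genes were named by rule: mean CPM of at least 1, the same sign of r in both groups and without APP_jq1 replicate 4, and the 10 highest and 10 lowest by the smaller absolute r of the 12-library and 11-library sets, beside the leading genes of components, list members and the genes of the relations. The labels do not say that libraries of a group came from separate animals, so p-values measure the spread between these samples, which may in part be technical. The depth of 14605459 to 25339482 counts puts 3 counts at 0.118 to 0.205 CPM, which covers counting error only.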

Additional observations from a re-analysis of the deposited data

Results flagged for a closer look

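Of 68 group values looked at, 9 had 1 library far from the other 5 of its group: the gap from that library to its nearest neighbour, divided by the range of the group, was above Dixon's limit for 6 values, which chance passes in about 1 in 20 groups. In 7 of the 9, the library was the one labelled APP_jq1 replicate 4. The gap was 0.755 of the range for Trem2, 0.634 for Tyrobp, 0.696 for their mean, 0.735 for Thy1, 0.633 for Gfap and 0.835 for Cst7, each on the log2 CPM scale with this library lowest. For the disease-associated list it was 0.657 in APP_jq1, with a centred mean of -1.89 in that library and -0.16 in the next. In APP_veh the same list gave 0.690, with -0.78 in replicate 6 and -0.02 in the next. The blood list gave 0.702 in APP_veh, with -1.19 in replicate 1 and 0.03 in the next.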

How the results depend on the processing

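Counts of genes varying with App, 0 in the report, were 3 with the replicate block, 103 after correcting for GC content and length, 51 with both, and without APP_jq1 replicate 4 were 21 with DESeq2 and 9 with the correction, while leaving out any 1 library gave 0 to 0. The count for the Trem2/Tyrobp mean, 295, became 510 with DESeq2, 194 with the correction and 163 with the first component as a covariate. It was 114 with the replicate block and the correction. Without the 3 libraries with Alb it was 8, and these include APP_jq1 replicate 4, whose removal alone gave 13. Without APP_jq1 replicate 4 it was 138 with DESeq2, 15 with limma and 0 with the correction (506 genes at an unadjusted p under 0.05), and leaving out 1 library gave 13 to 341, of which 13 came without APP_jq1 replicate 4 and the lowest other was 203 without APP_veh replicate 6. The replicate block gave 274, 253 rising and 21 falling. The count for the share of reads outside exons, 257, became 954 with DESeq2 (422 rising, 532 falling), 4 with the replicate block, 22 with the correction (19 rising, 3 falling), 27 with both, 566 without the Alb libraries (528 rising, 38 falling), and 280 with library size alone (119 rising, 161 falling). Without APP_jq1 replicate 4 it was 577 with DESeq2, 91 with limma and 32 with the correction. Leaving out 1 library gave 14 to 415: 14 without APP_veh replicate 2, 20 without APP_jq1 replicate 2, 42 without APP_jq1 replicate 3, 84 without replicate 4, 64 without replicate 5 and 415 without replicate 6, and 153, 53 and 55 without APP_veh replicates 1, 5 and 6.

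Leaving out 1 library moved r from -0.375 to 0.607 for App with the Trem2/Tyrobp mean, 0.937 to 0.985 for Trem2 with Tyrobp, 0.462 to 0.872 for App with Thy1, 0.154 to 0.711 with Gfap, -0.336 to 0.148 with Snap25, -0.427 to 0.176 with the outside share and 0.435 to 0.714 with the total count. For the Trem2/Tyrobp mean it gave 0.642 to 0.944 with Gfap, 0.929 to 0.981 with Cst7, 0.505 to 0.735 with P2ry12, -0.599 to -0.437 with Snap25, -0.248 to 0.374 with the outside share and -0.222 to 0.478 with the total count. As rho, App gave -0.0559 with the Trem2/Tyrobp mean and 0.573 with Thy1, and that mean gave 0.692 with Gfap and 0.748 with P2ry12. In APP_jq1 alone, r was 0.773 for App with Thy1, 0.200 with the outside share, and 0.852 for the Trem2/Tyrobp mean with P2ry12. In APP_veh alone, r was 0.915 for Trem2 with Tyrobp, 0.836 for App with Thy1, and for the Trem2/Tyrobp mean 0.581 with Gfap, -0.633 with the outside share and -0.309 with the total count. Without the Alb libraries, r of App was -0.156 with the Trem2/Tyrobp mean and 0.610 with Thy1, and r of that mean was 0.706 with Gfap, -0.562 with the outside share and -0.171 with the total count. The GC and length correction gave 0.410 for App with Snap25, library size alone 0.631 for the Trem2/Tyrobp mean with P2ry12, and RLE size factors 0.00401 for the correlation of App and the share of reads outside exons.

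With the replicate block, r was 0.635 for App with Thy1 and 0.894 with the outside share, and -0.0838 for the correlation of mean of Trem2 and Tyrobp and the total count. Same-numbered libraries of the groups correlated at 0.315, 0.256, -0.040, 0.194, -0.080 and -0.087, and numbers 1 and 2 correlated best with their own number, so the numbers were not taken as pairs. Of the slopes of named genes over the alternatives, 541 on App and 486 on the Trem2/Tyrobp mean kept their direction and side of the threshold. On App, 16 were classed as moved and 2 as stronger. On the Trem2/Tyrobp mean, 30 were classed as weaker, 8 as moved and 5 as stronger. Atrnl1 was the 1 classed as reversed, at 0.11 with the correction without APP_jq1 replicate 4. The cause was not tested for any of these changes. Alternatives without APP_jq1 replicate 4 by another tool and those without the Alb libraries were chosen after seeing the data. With 11 or 12 libraries and 1 of them far from the rest, relations of genes with a narrow range are held with least precision.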
